A study of Mus musculus with 9 samples.

Results

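Egln3 and 9 other genes of cellular oxygen sensing were followed in forebrain from mouse embryos that carry 1 or 2 working copies of Npas3. The 10 genes are the oxygen sensors Egln1, Egln2 and Egln3, the transcription factor genes Hif1a and Epas1, the ubiquitin ligase gene Vhl, and the oxygen-regulated targets Bnip3, Vegfa, Ankrd37 and Ndrg1. They are 10 of 55401 genes in the count table, and 10 of 10 passed the filter on low counts that 17818 genes passed. Egln3 was picked because its level differed between the genotypes in these same embryos, so that difference is described here and carries no test. The other 9 were picked by name as partners or targets of the pathway.

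In oxygenated cells, the Egln enzymes use molecular oxygen to hydroxylate prolines of the hypoxia-inducible factor (HIF) alpha subunits encoded by Hif1a and Epas1. The Vhl protein binds the hydroxylated subunits and marks them for degradation, whereas in hypoxia they persist, pair with Arnt or Arnt2 and switch on genes for glycolysis, vessel growth and mitochondrial turnover. Egln3 is itself a well-known target of this response, as are Vegfa, Bnip3, Ankrd37 and Ndrg1, so a pathway that is switched on would usually be read from several of these transcripts. Much of the control of the HIF alpha subunits acts on protein, which these RNA data do not measure. Npas3 belongs to the same family of basic helix-loop-helix PAS transcription factors as the HIF subunits and also pairs with Arnt proteins.

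RNA-seq was run on bulk forebrain of female embryos at embryonic day 16 to 17, from 5 WT embryos (Npas3+/+, WT littermates) and 4 HET embryos (Npas3+/-, constitutive loss of 1 allele in all cells), on a C57BL/6J background. The embryos are named by genotype and animal number as in the labels, WT5, WT15, WT16, WT41 and WT43, and HET5, HET6, HET7 and HET24. Litters, batches and dissection days are not given in the sources used here. The total count was 42640218 to 62830060 reads per WT embryo and 43011519 to 51588211 per HET embryo, and levels are given as CPM, the reads of a gene scaled to a common library size.

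Npas3 itself was measured at 40.8 CPM in WT5, 35.4 in WT15, 29.7 in WT16, 38.3 in WT41 and 37.0 in WT43, and at 27.9, 28.2, 34.1 and 27.8 CPM in HET5, HET6, HET7 and HET24. The HET mean was lower (log2 fold change of -0.30, standard error (SE) 0.10, n = 5 and 4), with HET7 above WT16, and this did not pass the test over all genes (edgeR quasi-likelihood adjusted p = 0.877). The labels give astrocytes as the cell type, but in every embryo 5 neuron markers summed to more (4568 to 5286 CPM) than 6 astrocyte markers (459 to 612 CPM). The samples are therefore described here as forebrain tissue. In such bulk tissue, fewer cells of a type and less RNA per cell cannot be told apart.

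HIF and other factors of its family bind short DNA motifs, so the stretch before the start of Egln3 is shown, beside a stretch of Bnip3, a member with several HIF cores there. The HIF core motifs ACGTG and GCGTG are in capitals, on either strand, so that GCGTG on the other strand reads CACGC. The sequences are from RefSeq on GRCm38.p6, minus strand, 5′ to 3′. The first is the 250 bases upstream of the Egln3 start (chr12:54203875-54204124) and the second is bases 135 to 76 upstream of the Bnip3 start (chr7:138909582-138909641).

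Egln3: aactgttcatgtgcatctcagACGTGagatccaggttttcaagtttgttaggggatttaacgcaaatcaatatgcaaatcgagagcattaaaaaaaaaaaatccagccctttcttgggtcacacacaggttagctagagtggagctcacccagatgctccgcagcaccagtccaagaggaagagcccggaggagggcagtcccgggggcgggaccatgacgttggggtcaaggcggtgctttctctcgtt

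Bnip3: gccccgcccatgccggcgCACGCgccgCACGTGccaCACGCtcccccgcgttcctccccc

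Within 250 bases upstream, Egln3 held 1 core, an ACGTG that begins 229 bases before the start. Over the same 250 bases Bnip3 held 5 matches, 4 of them in the stretch shown and 1, a GCGTG that begins 35 bases upstream, outside it. Of the 5, 2 are the strands of 1 palindromic CACGTG that begins 108 bases upstream. The 8 members with an entry have 10 listed promoters, of which 8 held at least 1 core. The 2 without a core were that of Vhl and 1 of the 2 of Vegfa. Among all 32851 listed promoters, ACGTG occurred in 16.57%, GCGTG in 28.16%, either core in 38.6%, the general E-box CANNTG in 66.22% and CACGTG in 6.02%, with both strands searched. Egln3 held 2 E-boxes of the form CANNTG and no CACGTG. These are matches of letters and not binding sites, and the known hypoxia-response element of the human EGLN3 gene lies in an intron, outside this window.

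Egln3, which encodes the hypoxia-inducible prolyl hydroxylase also called PHD3, was measured at 23.4 CPM in WT5, 18.3 in WT15, 21.6 in WT16, 22.0 in WT41 and 22.5 in WT43. In the HET embryos it was at 34.5 CPM in HET5, 34.9 in HET6, 33.0 in HET7 and 27.8 in HET24. Every HET embryo was above every WT embryo, and the lowest in each genotype were WT15 and HET24. WT embryos averaged 21.6 ± 1.94 CPM (SD, n = 5) and HET embryos 32.6 ± 3.26 CPM (SD, n = 4), a fold of 1.51 (log2 fold change of 0.59, SE 0.09). The values rest on 829 to 1596 reads per embryo. Since Egln3 was chosen from this contrast, it is the 1 of 10 members with an edgeR adjusted p under 0.05, where 0.14% of all tested genes passed in either direction and 0.0281% as higher in HET. That call was lost when a choroid plexus or an endothelial score (log2 CPM averaged over its markers) entered the fit, in the 5 embryos low in the choroid plexus transcript Ttr, and on leaving out any embryo other than HET24. Egln3 is likewise the only member with every HET value above every WT value, as were 0.786% of tested genes.

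**Figure D1:**
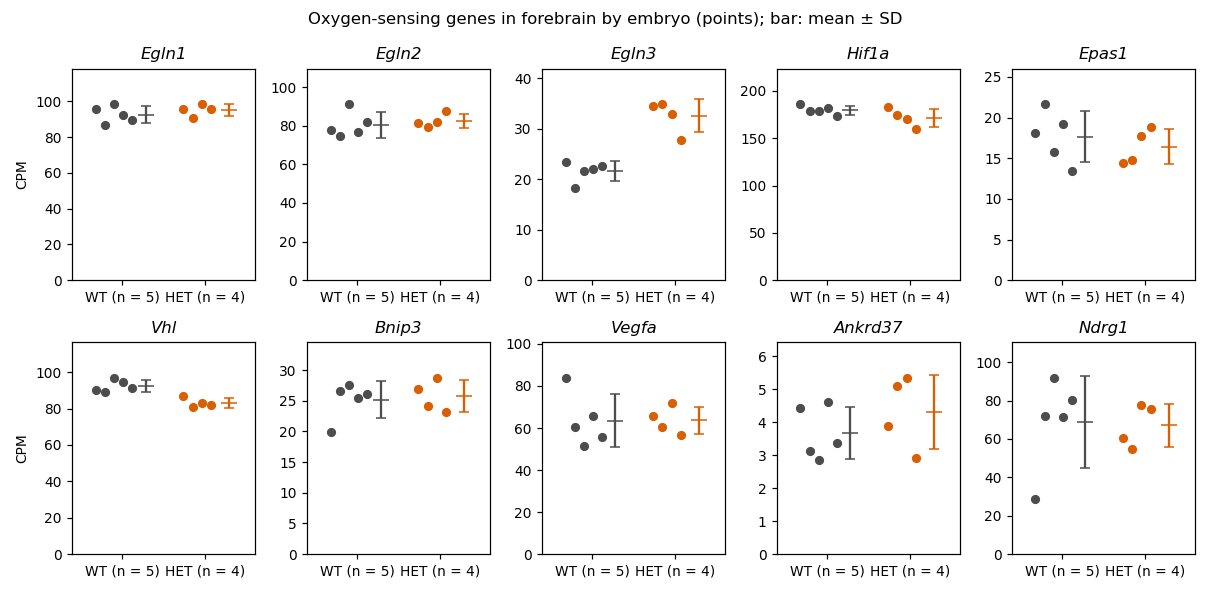
Level of each of the 10 genes (y axis, CPM, from 0) in each embryo (points), with the group mean ± SD beside them, for WT (grey, n = 5) and HET (orange, n = 4). Egln3 is the panel in which all HET embryos, at 27.8 to 34.9 CPM, are above all WT embryos, at 18.3 to 23.4 CPM, and Vhl is the panel in which they are all below.

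The related sensors did not differ in this way. Egln1, the main oxygen sensor of most tissues, was at 86.7 to 98.5 CPM in WT and 90.9 to 98.6 CPM in HET. The groups overlapped, although WT15 and WT43 lay below every HET embryo and HET7 just above every WT embryo. The log2 fold change was 0.04 (SE 0.06, 95% interval -0.08 to 0.17, edgeR quasi-likelihood adjusted p = 0.938). Egln2, a constitutively expressed family member, was at 74.5 to 91.3 CPM in WT and 79.1 to 87.6 CPM in HET. All its HET embryos lay within the WT range, with a log2 fold change of 0.04 (SE 0.07, interval -0.12 to 0.19, adjusted p = 0.944). As folds, these intervals run from 0.943 to 1.12 for Egln1 and from 0.922 to 1.14 for Egln2.

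To compare the 3 sensors with each other, their levels were divided by exon length. In WT, Egln2 stood at 28.7 ± 2.37 CPM per kb, Egln1 at 25.8 ± 1.33 and Egln3 at 8.11 ± 0.73 (SD, n = 5). Egln3 was thus the least abundant of the 3, while the ranges of Egln1 and Egln2 overlapped. It made up 11.9% to 13.9% of the summed level of the 3 genes per kb in WT and 15.3% to 19.7% in HET. The summed level was 57.6 to 68.1 CPM per kb in WT and 66.7 to 69.0 CPM per kb in HET, and these ranges overlapped because of WT16. In HET, Egln3 remained the lowest of the 3, at 12.2 ± 1.22 CPM per kb (SD, n = 4).

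**Figure D2:**
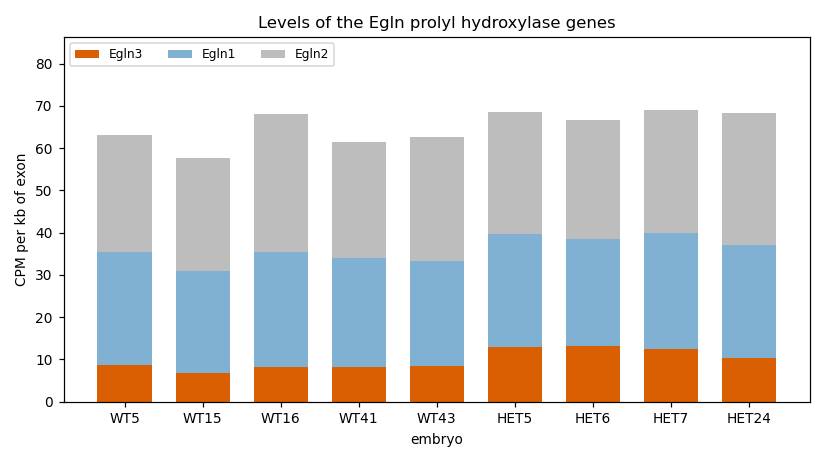
Level of Egln3 (orange), Egln1 (blue) and Egln2 (grey) per kb of exon, stacked, in each embryo (x axis). The orange segment is 6.89 to 8.80 CPM per kb high in WT and 10.5 to 13.1 in HET, and is the smallest of the 3 in every embryo.

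Of the HIF alpha subunits, Hif1a was at 186, 178, 178, 182 and 173 CPM in WT5, WT15, WT16, WT41 and WT43, and at 182, 174, 170 and 160 CPM in HET5, HET6, HET7 and HET24. The groups overlapped, with HET24 the lowest of all embryos, and the log2 fold change was -0.07 (SE 0.06, interval -0.19 to 0.06, edgeR adjusted p = 0.912). Epas1, which encodes HIF2 alpha and is best known from vessel cells, was at 13.5 to 21.7 CPM in WT and 14.4 to 18.9 CPM in HET. Its log2 fold change was -0.10 (SE 0.14, interval -0.41 to 0.21, adjusted p = 0.937), and all HET embryos lay inside the WT range.

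Vhl, the substrate receptor of the ligase that removes hydroxylated HIF, was at 90.2 CPM in WT5, 89.1 in WT15, 96.9 in WT16, 94.3 in WT41 and 91.2 in WT43. It was at 86.9 CPM in HET5, 80.8 in HET6, 82.9 in HET7 and 81.7 in HET24. The HET values all lay under the lowest WT value. Such a separation in either direction held for 1.85% of all tested genes and, of the 9 members other than Egln3, for Vhl alone. The difference was small, with means of 92.4 ± 3.22 CPM (SD) for 5 WT embryos and 83.1 ± 2.699 CPM (SD) for 4 HET embryos and a log2 fold change of -0.15 (SE 0.05, interval -0.27 to -0.04). At an unadjusted p of 0.0136 it did not pass the edgeR test over all genes (adjusted p = 0.879), and 5.42% of tested genes had an unadjusted p under 0.05.

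The 4 targets among the members gave no call in either direction, where 0.14% of all tested genes were called. Vegfa, the growth factor that draws in blood vessels, was at 83.9 CPM in WT5 and 51.6 to 65.7 CPM in the other 4 WT embryos, and at 56.8 to 71.8 CPM in HET. The HET embryos all lay between the WT extremes, and the log2 fold change was 0.003 (SE 0.13, interval -0.29 to 0.29, edgeR adjusted p = 0.998). Bnip3, a mitochondrial receptor for mitophagy, was at 19.9 CPM in WT5 and 25.5 to 27.6 CPM in the other WT embryos, against 23.1 to 28.7 CPM in HET. The groups overlapped, with a log2 fold change of 0.03 (SE 0.10, interval -0.20 to 0.26, adjusted p = 0.966).

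Ankrd37, a small ankyrin-repeat protein gene that responds to HIF1, was the least abundant member, at 131 to 293 reads per embryo. It was at 4.43, 3.14, 2.85, 4.62 and 3.38 CPM in WT5, WT15, WT16, WT41 and WT43, and at 3.88, 5.10, 5.35 and 2.92 CPM in HET5, HET6, HET7 and HET24. HET6 and HET7 were above all WT embryos and HET24 was near the bottom. The log2 fold change was 0.23 (SE 0.21, interval -0.24 to 0.69, edgeR adjusted p = 0.913). Ndrg1, a stress-responsive gene, was at 28.9 CPM in WT5 and 71.2 to 91.9 CPM in the other WT embryos, and at 54.8 to 77.6 CPM in HET. Its log2 fold change was -0.04 (SE 0.26, interval -0.61 to 0.54, adjusted p = 0.987), the widest interval of the set.

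Of the 9 members other than Egln3, 0 passed the edgeR test, where 0.14% of all tested genes passed in either direction. At an unadjusted p under 0.05 the count was 1, Vhl, and DESeq2 and limma-voom also called 0. Their median log2 fold change was 0.003, beside -0.005 over all tested genes. The 95% intervals of 8 of the 9 held no change, Vhl being the exception. Part of the exon length of some members is shared with another annotated gene, namely 26.4% for Ankrd37, 22.3% for Bnip3, 8.43% for Ndrg1, 8.11% for Hif1a and 0.393% for Egln2. How strand was handled in the counting is not given in the sources used here, so the levels of these genes are less certain than those of Egln1, Egln3, Epas1, Vhl and Vegfa, which share none.

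**Figure D3:**
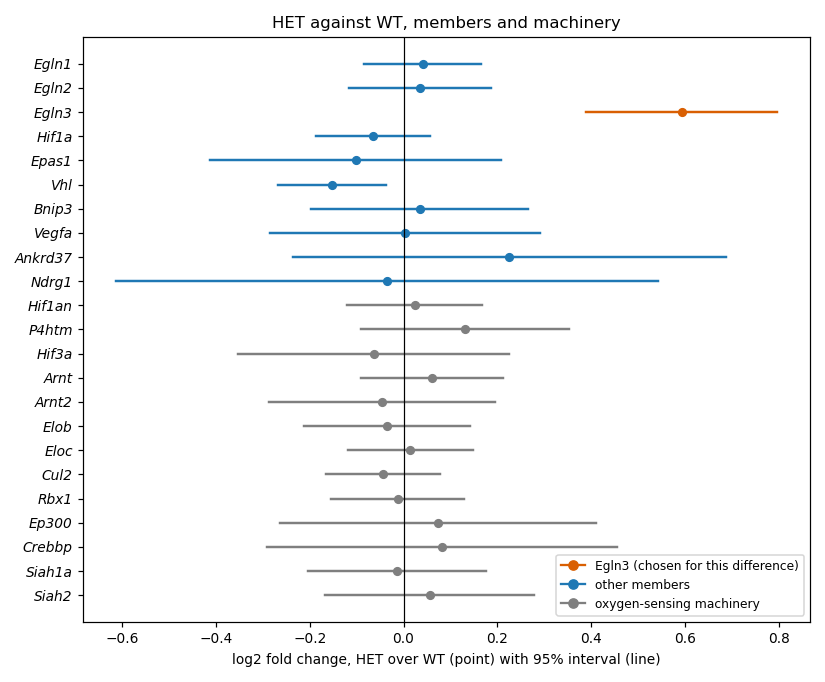
Log2 fold change of HET over WT (x axis, points) with 95% intervals (lines) for Egln3 (orange, chosen for this difference), the other 9 members (blue) and 13 genes of the oxygen-sensing machinery (grey), from edgeR. All grey intervals and all blue ones other than that of Vhl hold 0, and the interval of Egln3 runs from 0.39 to 0.80.

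The machinery around the sensors was taken from a list of 13 genes, 13 of which were tested. None passed the edgeR test, where 0.14% of all tested genes passed in either direction. At an unadjusted p under 0.05 the count was 0, beside 5.42% of all tested genes, and DESeq2 and limma-voom called 0. The log2 fold changes ran from -0.06 for Hif3a to 0.13 for P4htm, with a median of 0.014. Among the other sensors, Hif1an, the asparagine hydroxylase that blocks coactivator binding, had a log2 fold change of 0.02 (interval -0.12 to 0.17) and P4htm, a membrane-bound prolyl hydroxylase, one of 0.13 (interval -0.09 to 0.35). The HIF partner Arnt was at 0.06 and its brain-enriched relative Arnt2 at -0.05.

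The ligase subunits that work with Vhl stayed close to 0, with log2 fold changes of -0.04 for Elob, 0.014 for Eloc, -0.04 for Cul2 and -0.013 for Rbx1. Vhl was therefore the subunit with the lowest value of these 5. The coactivators Ep300 and Crebbp, which bind active HIF, had values of 0.07 and 0.08 with wide intervals of -0.26 to 0.41 and -0.29 to 0.46. Siah1a and Siah2, ubiquitin ligases that act on the Egln proteins, had values of -0.013 and 0.06.

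A wider list of 57 genes that respond to hypoxia in many tissues was then read in the same fit, of which 55 were tested. Epo and Car9 were under the filter on low counts. None of the 55 passed the edgeR test in either direction, close to the 0.14% of all tested genes that passed. DESeq2 and limma-voom called 0 as well. At an unadjusted p under 0.05 there was 1 higher in HET (Slc16a3) and 5 lower (Pfkl, Tpi1, Bhlhe40, Car12 and Lox), against 5.42% of all tested genes. The median log2 fold change was -0.02 and 25 of the 55 values were above 0, beside 48.5% of all tested genes.

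Of 19 genes of glucose transport and glycolysis, 9 had values above 0 and 10 below, with a median of -0.010. Slc16a3, a lactate exporter, was at 3.58, 2.39, 2.52, 3.53 and 3.25 CPM in WT5, WT15, WT16, WT41 and WT43, and at 4.61, 4.89, 5.68 and 3.32 CPM in HET5, HET6, HET7 and HET24. HET24, which was also the lowest HET embryo for Egln3, lay inside the WT range, and the log2 fold change was 0.60 (SE 0.18, edgeR adjusted p = 0.754). The glycolytic enzyme Tpi1 was at 219 to 248 CPM in WT and 171 to 225 CPM in HET, with a log2 fold change of -0.28 (SE 0.09, adjusted p = 0.738). Pfkl, the liver-type phosphofructokinase, was at 129 to 154 CPM in WT and 116 to 130.0 CPM in HET, with one of -0.20 (SE 0.07, adjusted p = 0.816). These 2 enzymes thus lay on the other side of 0 from Slc16a3 and Egln3.

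Among 7 genes of mitochondria and cell survival, 6 had values above 0, with a median of 0.06. Ddit4, a stress-induced inhibitor of mTORC1, was at 214 CPM in WT5 and 112 to 143 CPM in the other WT embryos, and at 132 to 217 CPM in HET. Without WT5 the groups overlapped only between HET24 and WT16, and over all embryos the log2 fold change was 0.32 (SE 0.19, edgeR adjusted p = 0.911). Without WT5, the WT embryo highest in Ddit4, the log2 fold change of Ddit4 was 0.51 (edgeR adjusted p = 0.276), and the response list then held 3 genes higher and 5 lower at an unadjusted p under 0.05, with 0 called, where 9.97% of all tested genes were under 0.05 in that fit. Among 9 tested genes of vessel, iron and blood signals, 3 had values above 0, with a median of -0.06.

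Of 8 genes of transcription and chromatin, 2 had values above 0. Bhlhe40, a repressor that is induced by hypoxia and by neuronal activity, was at 29.2 CPM in WT5 and 11.1 to 15.2 CPM in the other WT embryos, and at 8.04 to 11.8 CPM in HET. Only HET5 reached into the WT range, and the log2 fold change was -0.70 (SE 0.26, edgeR adjusted p = 0.907). Without WT5 it was -0.40 (adjusted p = 0.370). With the choroid plexus score in the edgeR fit it was -0.94 (adjusted p = 0.090), and with the endothelial score -1.27 (adjusted p = 0.091), also without a call.

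Of 12 tested genes of matrix, pH and storage, 5 had values above 0. Car12, a membrane carbonic anhydrase, was at 66.2, 47.7 and 60.2 CPM in WT15, WT16 and WT41, at 5.44 and 7.24 CPM in WT5 and WT43, and at 6.73, 7.06, 8.51 and 15.2 CPM in HET5, HET6, HET7 and HET24. Its log2 fold change was -1.99 (SE 0.69, edgeR adjusted p = 0.896). Lox, a collagen cross-linking enzyme, was at 4.13 to 5.57 CPM in WT15, WT16 and WT41, 1.28 to 1.97 CPM in WT5 and WT43 and 1.34 to 1.98 CPM in HET, with one of -1.06 (SE 0.38, adjusted p = 0.907). The 3 WT embryos high in Car12 and Lox were also high in Ttr, the leading transcript of choroid plexus, at 2127 to 2631 CPM, while Ttr was at 467 CPM in HET24 and 0.77 to 11.7 CPM in the other 5. Among those 5 (2 WT and 3 HET), the log2 fold change of Car12 was 0.23 and that of Lox 0.003.

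**Figure D4:**
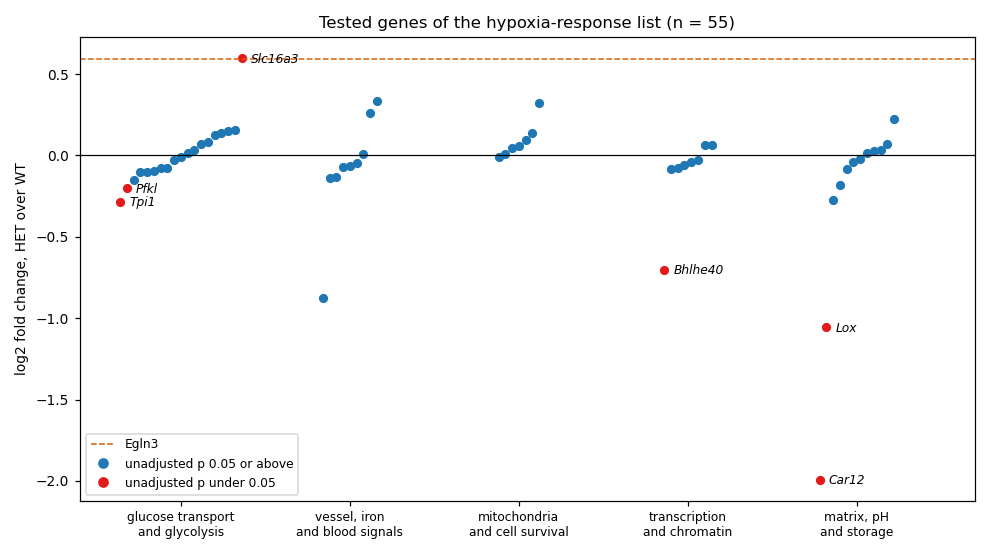
Log2 fold change of HET over WT (y axis) for the 55 tested genes of the hypoxia-response list, grouped by role (x axis), with genes at an unadjusted edgeR p under 0.05 in red and the value of Egln3, 0.59, as a dashed line. Most genes lie near 0, Slc16a3 is the point at the dashed line, and Car12, Lox and Bhlhe40 are the lowest labelled points.

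Some markers of other tissue also differed in level between the genotypes, without a call, and their part in the Egln3 difference was not tested. Of 8 choroid plexus markers, 8 had lower values in HET. At an unadjusted edgeR p under 0.05 there were 7, beside 5.42% of all tested genes, and 0 after adjustment. The summed level of the 8 markers was 6.64 to 2853 CPM in WT and 9.13 to 509 CPM in HET, with Kl at 0 in at least 1 embryo. In WT5 and WT43 it was 6.64 and 6.89 CPM, below every HET embryo, so the lower values in HET rest on WT15, WT16 and WT41. Egln3 was at 18.3, 21.6 and 22.0 CPM in the 3 WT embryos high in Ttr and at 23.4 and 22.5 CPM in the 2 low in Ttr, and at 27.8 CPM in HET24, high in Ttr, against 33.0 to 34.9 CPM in the others. In each genotype, then, the embryos high in Ttr had the lower Egln3. Among the 5 embryos low in Ttr the log2 fold change of Egln3 was 0.57 (SE 0.09), and once the choroid plexus score entered the fit for all 9 embryos it was 0.52 (SE 0.09).

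Of 8 endothelial markers, 7 had lower values in HET and none was at 0. At an unadjusted edgeR p under 0.05 there were 2, beside 5.42% of all tested genes, and 0 after adjustment. The summed level was 128 to 168 CPM in WT and 122 to 133 CPM in HET. Only WT5, at 128 CPM, lay within the HET range, so the endothelial level largely went with genotype. A fit that holds both can hardly tell them apart in these embryos. When the endothelial score entered the fit, the Egln3 value was 0.44 (SE 0.12) on the log2 scale, and that of Epas1, which vessel cells express, was 0.13 in place of -0.10, without a call. Of 6 astrocyte markers, 2 were lower at an unadjusted edgeR p under 0.05, beside 5.42% of all tested genes, and 0 after adjustment. The 6 markers summed to 459 to 612 CPM in WT and 479 to 535 CPM in HET. Of 7 erythroid markers, 5 had higher values in HET, at 209 to 569 CPM in WT and 380 to 444 CPM in HET, and in a fit with that score the log2 fold change of Egln3 was 0.60.

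Among WT embryos, Hif1a, Vhl and the 3 sensors varied least. In WT the coefficient of variation over 5 embryos was 2.73% for Hif1a, 3.49% for Vhl, 5.18% for Egln1, 8.24% for Egln2 and 8.99% for Egln3. It was 12.003% for Bnip3, 17.8% for Epas1, 19.7% for Vegfa, 21.5% for Ankrd37 and 34.7% for Ndrg1. This order did not hold throughout in HET, where Egln3 varied by 10.01% and Bnip3 by 9.94%. WT5 set much of the spread of the targets, with Ndrg1 at 0.366 times, Bnip3 at 0.753 times and Vegfa at 1.44 times the mean of the other WT embryos. Over the response list, WT5 was above all other WT embryos for 13 of 55 genes and below them for 12, where it was so for 24.03% and 25.26% of all tested genes. Without WT5, the log2 fold change was -0.23 for Ndrg1, 0.12 for Vegfa and -0.04 for Bnip3, with 0 of them past the edgeR test.

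**Figure D5:**
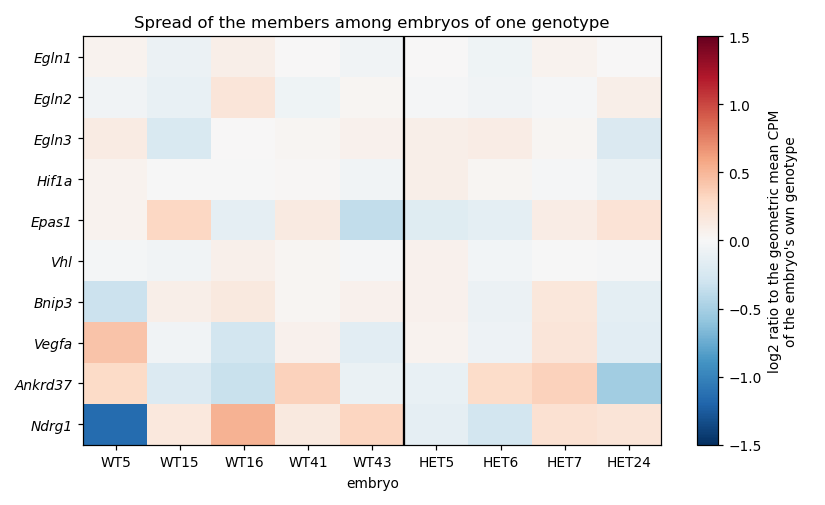
Log2 ratio of each member (rows) in each embryo (columns) to the geometric mean CPM of that embryo's own genotype, with red above and blue below it. WT5 has the darkest cell, for Ndrg1, and the rows of Egln1, Hif1a and Vhl are the palest.

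On the level per kb of exon, the order in WT was Vhl at 30.8, Hif1a at 30.4, Egln2 at 28.7, Egln1 at 25.8, Vegfa at 14.8, Bnip3 at 11.1, Ndrg1 at 10.4, Egln3 at 8.11, Epas1 at 3.16 and Ankrd37 at 2.39 CPM per kb. The neighbours Vhl and Hif1a, Hif1a and Egln2, Egln2 and Egln1, Vegfa and Bnip3, Bnip3 and Ndrg1, and Epas1 and Ankrd37 overlapped between embryos. Ndrg1 and Egln3 overlapped only through WT5, at 4.38 CPM per kb for Ndrg1. Egln1 stood above Vegfa and Egln3 above Epas1 in every WT embryo. In HET, Egln3 at 12.2 CPM per kb was in a range with Bnip3 at 11.4 and Ndrg1 at 10.2.

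Egln3 lies next to the deleted gene on chromosome 12 (GRCm38, positions 54178981 to 54203860, minus strand), and 106805 bases separate it from Npas3 (53248677 to 54072175, plus strand), with 1 annotated long noncoding RNA gene, Gm35818, in between. Whether this position bears on the Egln3 level was not tested. The other tested genes within 500000 bases of Egln3 were Sptssa, with a log2 fold change of 0.01 (SE 0.08), and Eapp, with one of -0.09 (SE 0.05, edgeR adjusted p = 0.911). Eapp was lower in every HET embryo than in every WT embryo, at means of 59.6 and 63.4 CPM. Such a separation in either direction held for 1.85% of all tested genes, and the unadjusted edgeR p of Eapp was 0.118. Hif1a, on the same chromosome, is 19829199 bases from Npas3. The other members are on chromosomes 6 (Vhl), 7 (Egln2 and Bnip3), 8 (Egln1 and Ankrd37), 15 (Ndrg1) and 17 (Epas1 and Vegfa).

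The genes most like Egln3 from embryo to embryo were sought among 14371 genes with a mean of at least 1 CPM, by the Pearson correlation over 9 embryos of their deviations from the genotype mean of log2 CPM. They were Gm7809 (r = 0.96, Spearman rho = 0.92), Sox8 (r = 0.95, rho = 0.85), B3glct (r = 0.94, rho = 0.87), Nfxl1 (r = 0.94, rho = 0.85) and Ythdc1 (r = 0.93, rho = 0.57). As the highest of many they carry no test. WT15 and HET24 are the 2 embryos whose Egln3 deviation from the genotype mean lay farthest from the median deviation. Without them, r of these genes in the order given was 0.82, 0.70, 0.61, 0.63 and 0.32. Among the members the same measure was highest for Ankrd37 (r = 0.65, rho = 0.52, rank 806) and Hif1a (r = 0.63, rho = 0.68) and lowest for Epas1 (r = -0.69, rho = -0.67). Without the same 2 embryos these were 0.26, 0.53 and -0.20, so most of the likeness of Ankrd37 and Epas1 rests on them. The lowest were then Ndrg1 (r = -0.85), Bnip3 (r = -0.82) and Egln2 (r = -0.60), which had been at -0.43, -0.12 and -0.08 over all 9 embryos. Leaving out WT5 alone gave -0.28, 0.25 and -0.01 for Ndrg1, Bnip3 and Egln2, so these values depend on which embryos enter.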

How the data were processed

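RNA of bulk forebrain from 5 WT and 4 HET embryos was sequenced after TruSeq library preparation. The deposited values are counts of reads per gene, which the authors made by aligning to GRCm38.p6 with STAR 2.7.9a and counting with featureCounts on GENCODE annotation, without normalization. Multimapping and strand settings are not given in the sources used here. 0 columns were left unmapped.

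In R 4.3.3, genes were filtered with edgeR 4.0.16 filterByExpr (minimum count of 10) and scaled by TMM. HET was compared with WT by the edgeR quasi-likelihood test over all 9 samples without covariates, with Benjamini-Hochberg adjustment over 17818 genes and 0.05 as the threshold. Intervals are 95% intervals of that fit. Nothing says whether embryos came from separate litters, so p-values measure the spread between these embryos. DESeq2 1.42.0, limma-voom (limma 3.58.1), other scalings and filters, covariates from marker lists, the embryos with Ttr under 100 CPM and leaving out each embryo were alternatives. Tests were checked on simulated counts, and no libraries were merged. PCR duplicates cannot be told from molecules, so depth covers counting error only.

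The members, gene lists and tests were chosen with earlier results of these data known. Genes were named by rule: the members, Npas3, Ttr, the machinery list, response genes at an unadjusted p under 0.05 or among the 3 highest and 3 lowest with at least 1 CPM, and the 5 genes most like Egln3. The values of 1 response gene under this rule are not reported here. Neighbours of Egln3, Epo, Car9 and Kl were named after their values were seen. Aldoa has 2 rows, of which the one with more reads was used, and Ero1a is listed under its older symbol. Promoters are RefSeq (GRCm38.p6), without entries matched for Epas1 and Ndrg1, and coordinates and exon lengths are from GENCODE M21 on GRCm38, so start sites can differ. Figures were drawn with matplotlib.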

Additional observations from a re-analysis of the deposited data

Results flagged for a closer look

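Chance alone flags about 1 in 20 groups, and of 84 groups of 4 or 5 embryos examined for a single distant embryo, 8 were flagged where 4.2 were to be anticipated. The values are given without an explanation. In WT, WT5 stood apart with Bnip3 at 19.9 CPM, below the other embryos, with Bhlhe40 at 29.2 CPM, above them, and with a summed neuron marker level of 4568 CPM, below them. WT16 stood apart with Eloc at 145 CPM and Rbx1 at 185 CPM, both subunits of the Vhl ligase and both above the other WT embryos. In HET, HET7 stood apart with Npas3 at 34.1 CPM, above the others, and HET24 with Ttr at 467 CPM and a summed choroid plexus marker level of 509 CPM. Egln3 itself had no embryo set apart by this rule in either genotype.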

How the results depend on the processing

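The log2 fold change of Egln3 was above 0 under all 19 alternatives. As Egln3 was picked for its rise in these same embryos, an unchanged sign lends no support to the difference. Of the 10 alternatives other than leaving out 1 embryo, 7 kept Egln3 past the threshold, again in the embryos that picked it. The call was lost with the choroid plexus score (log2 fold change of 0.52) or the endothelial score (0.44) as a covariate. It was also lost in the embryos low in Ttr (0.57, with fewer samples). The cause was not tested. Leaving out 1 embryo, which was tried in edgeR only, gave 0.54 to 0.66, past the threshold only without HET24. Leaving out any of the other 8 embryos ended the edgeR call, whose adjusted p over all embryos, 0.037, was already near the threshold. None of the other 9 members, the machinery list or the response list gave a call under any alternative. Signs of uncalled members changed in 9 alternatives each for Vegfa and Ndrg1, 2 each for Epas1 and Bnip3, and 1 each for Egln1 and Egln2, and did not change for Vhl, Hif1a and Ankrd37. Over all genes, DESeq2 called 21 higher and 63 lower where edgeR called 5 and 20. Of the members, Ankrd37 had the fewest reads and Ndrg1 the widest interval. No paired analysis was possible because only the animal number 5 occurs in both groups.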
